A study of Mus musculus with 8 samples.

Results

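Genes of cytotoxic lymphocytes, 10 in number, were examined in whole livers of mice given alcohol, comparing livers whose hepatocytes carry a Stat3 deletion with livers of floxed mice without it. The genes were taken by their symbols from the 22183 rows of the deposited gene count table: the granule genes Gzma, Gzmb, Prf1 and Nkg7, the T cell receptor and coreceptor genes Cd3d, Cd3e, Cd3g and Cd8a, and the lectin-like receptor genes Klrb1c and Klrk1. All 10 had 1 row each. The knockout group held 4 libraries from Stat3flox/flox;Alb-Cre mice, whose Cre is under the albumin promoter and so acts in hepatocytes, and the control group held 4 libraries from Stat3flox/flox mice. All mice, knockout and control alike, were gavaged each day over 2 weeks with alcohol (20%, at 15 µL/g), and no liver without alcohol was analysed here. The labels give no age, strain or sex, and nothing in them says that each numbered sample is a different animal; the p-values below measure only the spread between these samples, which may be technical.

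Natural killer cells, innate lymphoid cells and T cells are a known part of the resident lymphocytes of mouse liver. Cytotoxic lymphocytes store perforin, which forms pores in a target cell's membrane, and granzymes, serine proteases that enter the target and start its death. T cells signal through the CD3 chains of the T cell receptor complex, whereas natural killer cells read a balance of activating and inhibitory receptors, many of them C-type lectin-like. Alb-Cre is not active in lymphocytes, so the 10 genes report on cells whose own Stat3 was not the target of the deletion. In whole tissue, fewer cells of a type and less RNA per cell cannot be told apart.

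Each library held 15998391 to 19474696 counts, and the 10 genes together made up at most 0.00224% of them. Stat3 itself had 27.3, 25.1, 29.7 and 28.4 CPM (counts per 1e6 counts of the library, scaled by TMM) in knockouts 1 to 4, against 75.1, 72.9, 46.8 and 72.1 CPM in controls 1 to 4, so the libraries went with their labels (log2 fold change −1.27, SE 0.17, adjusted p = 0.0469, edgeR quasi-likelihood test). A count over the whole gene does not show which exons were deleted. Hepatocyte markers such as Alb, Apoa1 and Ttr, defining genes of the labelled tissue, summed to 105445 to 158075 CPM in knockouts and 116198 to 343775 CPM in controls, and albumin took 27.3% of all counts in control 2 against 7.46 to 13.8% in the other 7 libraries. Control 3 stood apart, in leukocytes and beyond. There 8 pan-leukocyte markers, among them Ptprc (CD45), summed to 14.7 CPM, against 25.1 to 39.9 CPM in the knockouts and 56.6 to 80.8 CPM in the other controls. Sinusoidal endothelial markers summed to 42.2 CPM in control 3, against 84.1 to 101 CPM in the knockouts and 70.7 to 107 CPM in the other controls. Its Stat3 level was the lowest of the controls, and its cholangiocyte markers were the highest of all libraries, at 150 CPM. Y-linked reads were present in 3 of 4 knockout and 2 of 4 control libraries. They numbered 728, 934 and 842 in knockouts 2 to 4, 1672 in control 3 and 294 in control 4. Knockout 1 and controls 1 and 2 had 2, 5 and 1. Because control 3 stood apart, member values are given with and without it.

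Promoter sequence is shown for the granzymes, whose reads are set against each other below, and for Klrk1, the receptor gene with the most reads. The sequences are from RefSeq on GRCm38.p6 and run from 250 bases before to 50 bases after the annotated start, 5′ to 3′ on the gene's own strand. Capitals mark letters matching, on either strand, TGTGGT (core of RUNX sites), TGANTCA (AP-1), TTCNNNGAA (STAT) or TATAA (core of the TATA box). GGAAGT (ETS) was searched too and has no match in these 3 windows. All 3 genes lie on the minus strand, Gzma at chr13:113100932-113101231, Gzmb at chr14:56262285-56262584 and Klrk1 at chr6:129623815-129624114.
Gzma: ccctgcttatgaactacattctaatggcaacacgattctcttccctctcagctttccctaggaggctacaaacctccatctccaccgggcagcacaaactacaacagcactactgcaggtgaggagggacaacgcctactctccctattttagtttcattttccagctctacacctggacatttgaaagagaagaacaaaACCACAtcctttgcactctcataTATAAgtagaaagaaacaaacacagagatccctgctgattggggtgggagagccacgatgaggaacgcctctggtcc
Gzmb: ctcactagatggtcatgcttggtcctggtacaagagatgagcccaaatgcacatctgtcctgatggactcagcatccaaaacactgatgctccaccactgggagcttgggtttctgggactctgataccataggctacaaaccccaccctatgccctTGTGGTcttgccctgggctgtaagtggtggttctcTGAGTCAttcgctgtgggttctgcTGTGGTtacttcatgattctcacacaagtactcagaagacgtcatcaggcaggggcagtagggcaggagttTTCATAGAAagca
Klrk1: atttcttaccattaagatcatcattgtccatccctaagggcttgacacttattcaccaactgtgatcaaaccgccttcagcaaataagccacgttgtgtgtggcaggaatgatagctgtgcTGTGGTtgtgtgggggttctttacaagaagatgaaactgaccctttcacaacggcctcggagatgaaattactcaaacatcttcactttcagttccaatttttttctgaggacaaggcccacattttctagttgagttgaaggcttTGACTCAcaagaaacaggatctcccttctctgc

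The RUNX core was found in the windows of 6 of the 10 genes (Gzma, Gzmb, Prf1, Nkg7, Klrb1c and Klrk1, that is all 4 granule genes and both lectin-like receptors) and in 16.8% of all 32851 RefSeq windows of the same length. It was found in none of the Cd3d, Cd3e, Cd3g and Cd8a windows. The Gzma window holds it 50 to 45 bases before the start and a TATA core 27 to 23 bases before it, and the Gzmb window holds the RUNX core in 2 places. The STAT motif was found in the windows of 3 members (Gzmb, Nkg7 and Cd3d) and in 8.3% of all windows. In Cd3d it overlaps a GGAAGT match. The AP-1 motif was found in 2 members (Gzmb and Klrk1) against 7.81% of all windows, the ETS motif in 4 (Prf1, Cd3d, Cd3e and Klrb1c) against 23.8%, and the TATA core in 1 (Gzma) against 24.9%. These matches describe letters in 1 window per gene, and the RefSeq start of Gzmb lies 74 bases and that of Klrb1c 574 bases from the GENCODE start of the same gene.

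Counts of the 10 genes were low in every library, between 0 and 114, and 38 of the 80 values were under 10 counts. The mean CPM of 9 of the 10 genes was lower in knockout than in control, Cd3g being the exception, but control 3 was lowest or tied for lowest among the controls for all 10 genes and lay below every knockout for 7 of them. In no gene were the groups separate (0 of 10, against 7.08% of the 11692 genes tested across the table). Without control 3, every knockout library lay below every remaining control library in CPM for 4 genes (Gzma, Prf1, Klrb1c and Klrk1), against 10.1% of all tested genes. Both shares cover only genes with enough counts to be tested, which Gzma and Klrk1 had but Prf1 and Klrb1c had not. The split without control 3 was chosen with the low values of that library in view.

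**Figure D1:**
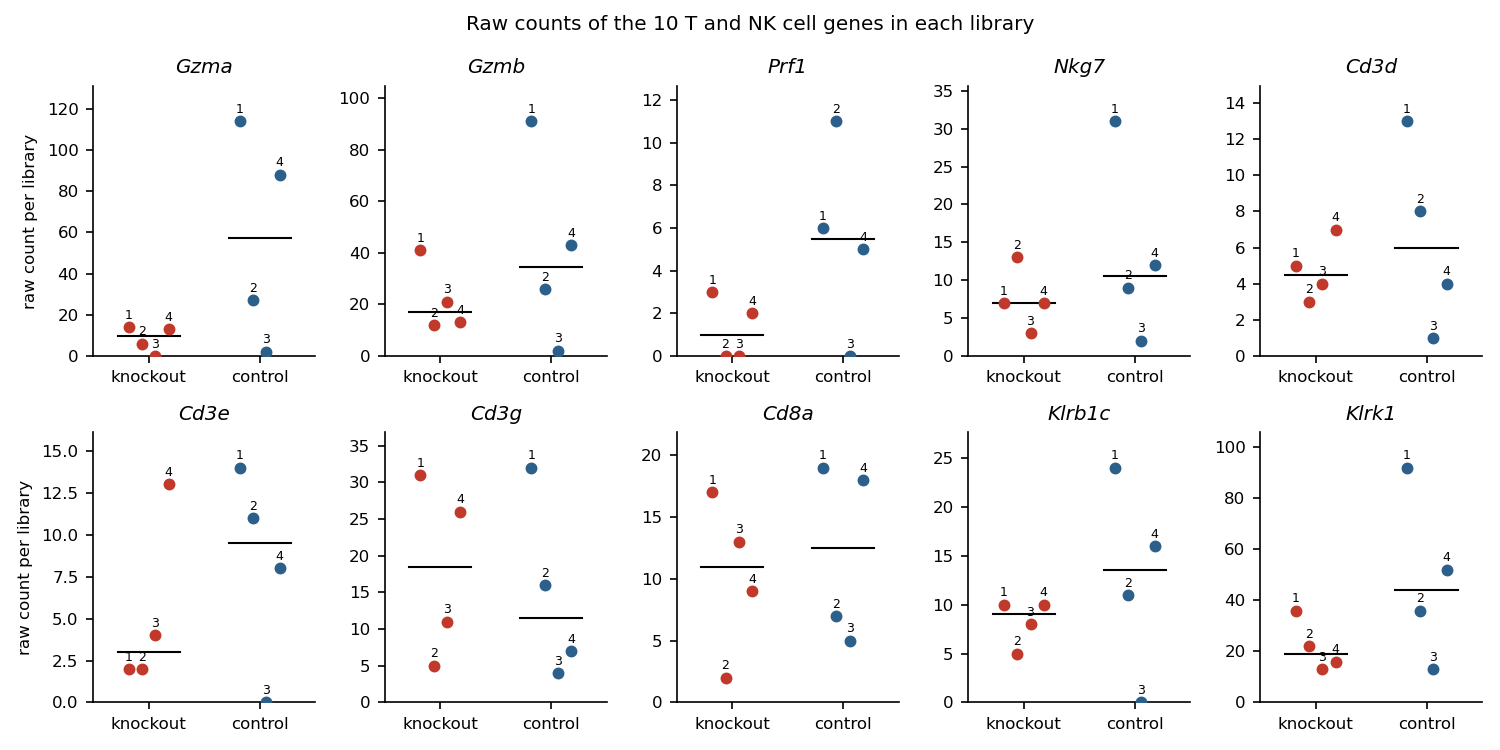
Raw counts of the 10 genes, 1 panel per gene, in the 4 knockout libraries (red, left) and the 4 control libraries (blue, right). Digits give the replicate number, and black lines the group median, which for Gzma is 9.5 in knockout and 57.5 in control. Control 3 sits at the bottom of the control group in every panel.

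The count table was tested across all genes by edgeR's quasi-likelihood test, in which 5 of the 10 genes had enough counts to enter (Gzma, Gzmb, Klrk1, Cd3g and Cd8a). None of the 5 passed an adjusted p of 0.05, against 0.0342% of all tested genes (4 of 11692). At an unadjusted p under 0.05 there was 1 of 5, Gzma, lower in knockout, against 14% of all tested genes in either direction and 8.47% lower in knockout. DESeq2 called 0 members and 278 genes in all, and limma-voom called 0 members but also 0 genes in all. Of the 5 fold changes 4 were below 0, with a median of −0.71 on the log2 scale, beside a share of 53.2% below 0 and a median of −0.03 over all tested genes. A gene can pass the filter through the group in which it is higher, so these 5 do not stand for all 10.

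Gzma (ENSMUSG00000023132, chromosome 13, 113093825 to 113100981, GRCm38) encodes granzyme A, a granule protease with trypsin-like specificity. It had 14, 6, 0 and 13 counts in knockouts 1 to 4, against 114, 27, 2 and 88 counts in controls 1 to 4. All 4 knockouts lay below controls 1, 2 and 4, and 3 of them above control 3. The means were 0.455 ± 0.336 CPM in knockout and 2.83 ± 2.23 CPM in control (SD, n = 4 each), a log2 fold change of −2.61 (SE 0.91, adjusted p = 0.266, edgeR quasi-likelihood test). The count of 0 in knockout 3 allows up to 0.181 counts per 1e6 of the unscaled total (3 counts, counting error only).

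The size and the call for Gzma moved with control 3. Without that library the log2 fold change was −3.0 (SE 0.63) and the gene was called (adjusted p = 0.0365), in a fit that called 2.72% of all genes. Leaving out controls 2 and 3 together gave −3.3 (adjusted p = 0.0356, with 1.54% of all genes called). Among the 5 libraries with Y-linked reads, 3 knockouts and controls 3 and 4, those controls had 2 and 88 Gzma counts. The value there was −2.61 (SE 1.26, adjusted p = 0.364), and libraries without Y-linked reads held 1 knockout only, too few for a value. With a covariate for such reads it was −2.46 (SE 0.93, adjusted p = 0.318). Gzma did not enter the fit at a filter of 1 CPM in 4 libraries. Over the other alternatives, each other library left out included, Gzma ranged from −2.94 to −2.19 and was not called.

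Gzmb (ENSMUSG00000015437, chromosome 14, 56258838 to 56262260) encodes granzyme B, which cleaves after aspartate and activates caspases in the target cell. It had 41, 12, 21 and 13 counts in knockouts 1 to 4, against 91, 26, 2 and 43 counts in controls 1 to 4. The groups overlapped even without control 3, since knockout 1 exceeded control 2 in CPM as in counts. The means were 1.23 ± 0.673 CPM in knockout and 2.01 ± 1.56 CPM in control (SD, n = 4 each), and the log2 fold change of −0.71 (SE 0.69, adjusted p = 0.666 in the edgeR test) was about as large as its error, with −1.14 when knockout 1, −1.1 when control 3 and −0.14 when control 1 was left out. Gzmb belongs to a gene cluster with close relatives such as Gzmc, so the division of reads among them is uncertain.

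Set against each other within a library, the granzymes gave a value that does not depend on the library's scaling. Gzma made up 25.5%, 33.3%, 0% and 50% of the reads of both genes in knockouts 1 to 4, out of 55, 18, 21 and 26 reads, and 55.6%, 50.9%, 50% and 67.2% in controls 1 to 4, out of 205, 53, 4 and 131 reads. No knockout exceeded any control, and knockout 4 and control 3 tied. The exact 95% binomial intervals of knockouts 1 (14.7 to 39%) and 3 (0 to 16.1%) ended below those of controls 1 (48.5 to 62.5%) and 4 (58.4 to 75.1%), whereas control 3 spanned 6.76 to 93.2%. Those of knockouts 2 (13.3 to 59%) and 4 (29.9 to 70.1%) overlapped every control, and that of control 2 (36.8 to 64.9%) overlapped knockout 1. The intervals cover counting error only. This share was chosen after the counts were seen and was not tested.

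**Figure D2:**
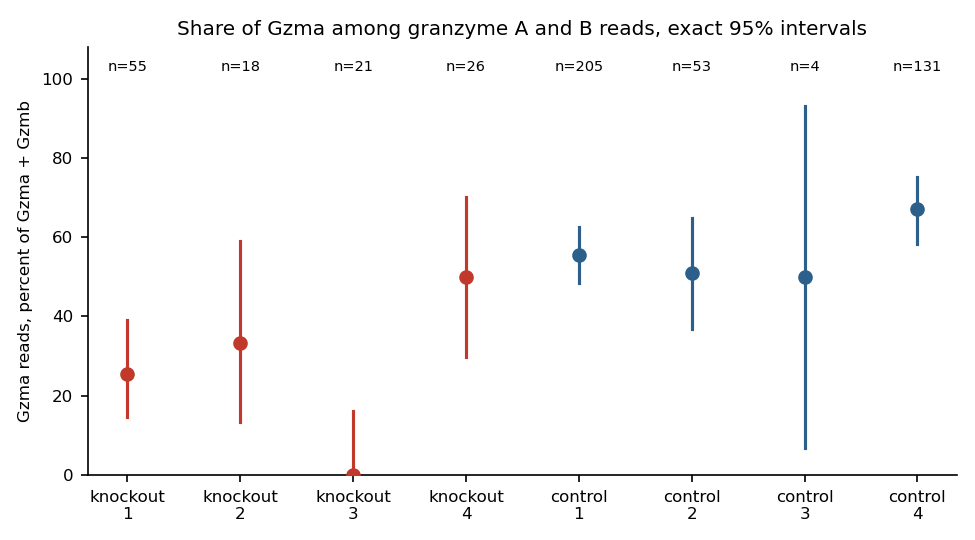
Gzma reads as a percent of Gzma and Gzmb reads together in the 4 knockout libraries (red) and the 4 control libraries (blue), with exact 95% binomial intervals and the number of reads above each point. Knockout values run from 0 to 50% and control values from 50 to 67.2%, and the interval of control 3 rests on 4 reads.

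Prf1 and Nkg7 were too low for the fit. Prf1 (ENSMUSG00000037202, chromosome 10, 61297833 to 61304680) encodes perforin, and it had 3, 0, 0 and 2 counts in knockouts 1 to 4 and 6, 11, 0 and 5 counts in controls 1 to 4. All knockouts were below controls 1, 2 and 4, and a zero in knockouts 2 and 3 and in control 3 allows up to 0.188, 0.181 and 0.168 counts per 1e6 of the unscaled total. For the difference in mean CPM, p was 0.2 by exact permutation (two-sided), where the smallest p that 70 assignments allow is 0.0286. Without control 3 the exact test gave 0.0286, the smallest of 35 assignments, for counts of at most 11. Nkg7 (ENSMUSG00000004612, chromosome 7, 43437073 to 43438249), a membrane protein of cytotoxic granules, had 7, 13, 3 and 7 counts in knockouts 1 to 4 and 31, 9, 2 and 12 counts in controls 1 to 4. Its groups were interleaved (0.448 ± 0.3 CPM in knockout and 0.673 ± 0.5 CPM in control, SD, n = 4 each, exact permutation p = 0.543), and the difference of −0.224 CPM became −0.409 CPM without control 3 (exact permutation p = 0.229) and −0.00398 CPM without control 1.

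Klrk1 (ENSMUSG00000030149, chromosome 6, 129610323 to 129623864) encodes NKG2D, an activating receptor of natural killer cells and CD8+ T cells that binds stress-induced ligands. It had 36, 22, 13 and 16 counts in knockouts 1 to 4, against 92, 36, 13 and 52 counts in controls 1 to 4. In CPM all 4 knockouts (0.782 to 1.9) lay below controls 1, 2 and 4 (2.55 to 3.96) and above control 3 (0.775). By the edgeR test the log2 fold change was −0.99 (SE 0.48, adjusted p = 0.381), with −1.28 (SE 0.37, adjusted p = 0.0964) without control 3 and −0.64 (adjusted p = 0.678) without control 1. Klrb1c (ENSMUSG00000030325, chromosome 6, 128778485 to 128789215) encodes NK1.1, the antigen by which natural killer cells are identified in C57BL/6 mice. It had 10, 5, 8 and 10 counts in knockouts 1 to 4 and 24, 11, 0 and 16 counts in controls 1 to 4, so that the knockouts lay between control 3 and the other controls (exact permutation p = 0.514, and 0.0286 without control 3, the smallest of 35 assignments). The difference of −0.186 CPM became −0.404 CPM without control 3 and −0.0594 CPM without control 1. It entered the edgeR fit without control 3, at −0.89 (SE 0.38, adjusted p = 0.224). Klrb1c overlaps another annotated gene, Gm44511, on the same strand and has close relatives beside it, and its counts are uncertain to that extent.

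T cell receptor and coreceptor genes had values of both signs. Cd3g (ENSMUSG00000002033, chromosome 9, 44969572 to 44980431), the gamma chain of CD3, had 31, 5, 11 and 26 counts in knockouts 1 to 4 and 32, 16, 4 and 7 counts in controls 1 to 4. Both groups covered nearly the same range, and the log2 fold change was 0.37 (SE 0.62, adjusted p = 0.819, edgeR quasi-likelihood test), with 0.09 without control 3 and 0.86 without control 1. Cd8a (ENSMUSG00000053977, chromosome 6, 71373427 to 71379173), a chain of the CD8 coreceptor for MHC class I, had 17, 2, 13 and 9 counts in knockouts 1 to 4 and 19, 7, 5 and 18 counts in controls 1 to 4. Its log2 fold change was −0.14 (SE 0.55, adjusted p = 0.925) with −0.36 without control 3, and turned to 0.02, 0.08 and 0.17 without control 1, control 4 and knockout 2.

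The remaining CD3 chains had fewer reads. Cd3d (ENSMUSG00000032094, chromosome 9, 44981786 to 44987339) had 5, 3, 4 and 7 counts in knockouts 1 to 4 and 13, 8, 1 and 4 counts in controls 1 to 4 (exact permutation p = 0.6). Cd3e (ENSMUSG00000032093, chromosome 9, 44998740 to 45009627) had 2, 2, 4 and 13 counts in knockouts 1 to 4 and 14, 11, 0 and 8 counts in controls 1 to 4 (exact permutation p = 0.514). In both genes the groups overlapped with and without control 3. The difference for Cd3d was −0.0786 CPM, −0.174 CPM without control 3 (exact permutation p = 0.257) and −0.00762 CPM without control 1. For Cd3e it was −0.156 CPM, and −0.305 CPM without control 3 (exact permutation p = 0.143). The 3 CD3 genes are neighbours, Cd3g and Cd3d lying head to head with 1354 bases between them and Cd3d and Cd3e 11400 bases apart, and Cd3e is overlapped by Gm48719 on the opposite strand and Gm48720 on its own. Whether counting used strand is not given in the sources used here, so how reads were divided between Cd3e and those overlapping genes is not known.

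**Figure D3:**
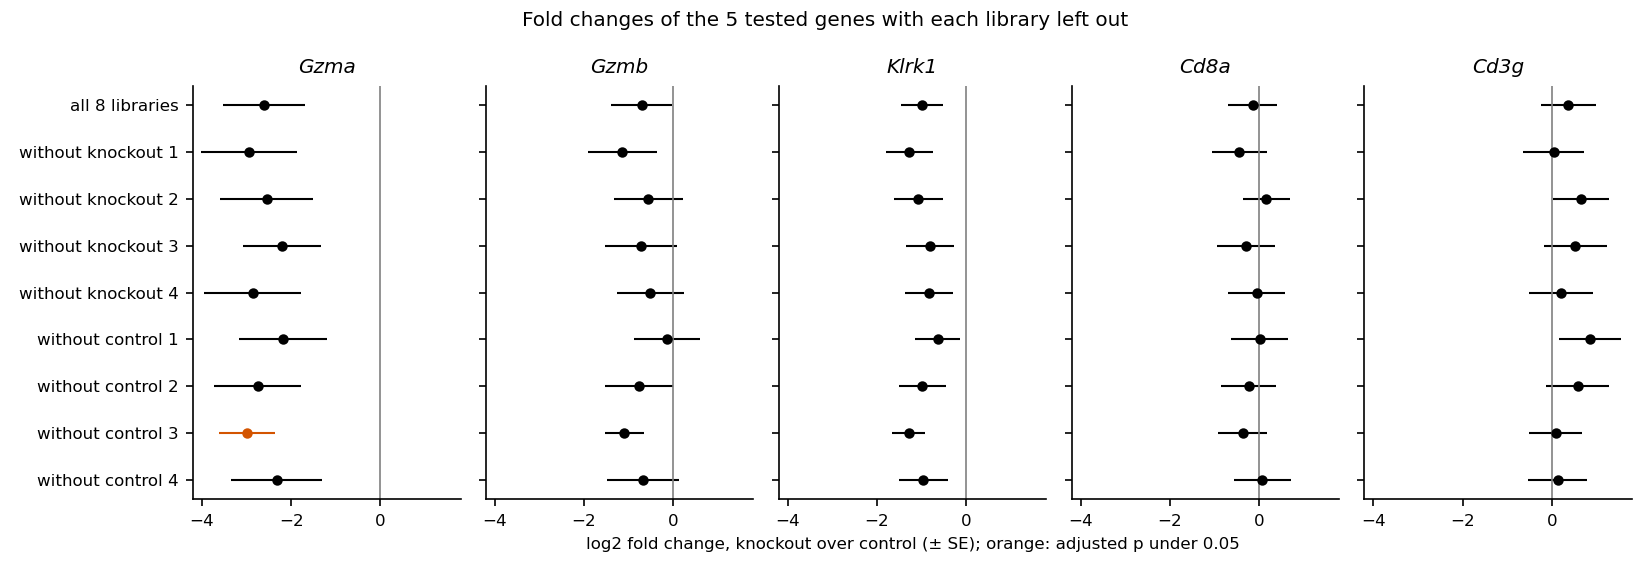
Log2 fold change, knockout over control, with its standard error for the 5 genes that entered the edgeR fit, over all 8 libraries and with each library left out in turn. The single orange point is Gzma without control 3 (−3.0), and with a library left out Cd8a runs from −0.44 to 0.17 and Cd3g from 0.04 to 0.86.

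Summed by role, the granule genes held 65, 31, 24 and 35 counts in knockouts 1 to 4 and 242, 73, 6 and 148 counts in controls 1 to 4. In CPM that was 2.2 ± 0.866 in knockout and 5.83 ± 4.24 in control (SD, n = 4 each). The lectin-like receptors together were at 1.72 ± 0.535 CPM in knockout and 3.12 ± 1.74 CPM in control. The 3 CD3 chains and Cd8a together were at 2.13 ± 0.987 CPM in knockout and 2.19 ± 1.24 CPM in control, with 55, 12, 32 and 55 counts in knockouts 1 to 4 and 78, 42, 10 and 37 counts in controls 1 to 4. Over all 10 genes the sum was 6.04 ± 1.93 CPM in knockout and 11.2 ± 7.05 CPM in control, and without Gzma it was 5.59 ± 1.69 CPM in knockout and 8.32 ± 5.08 CPM in control. The difference over all 10 was −5.11 CPM, −8.25 CPM without control 3 and −2.57 CPM without control 1. Without control 3 (n = 3) the control means were 7.66 ± 2.63 CPM for the granule genes, 3.91 ± 0.94 CPM for the lectin-like receptors and 2.73 ± 0.785 CPM for the CD3 chains with Cd8a. Without control 1 they were 4.31 ± 3.6, 2.5 ± 1.5 and 1.81 ± 1.19 CPM in the same order, so that the knockout mean of the CD3 chains with Cd8a was then the higher one. No test was made of these sums, nor of the difference between roles.

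**Figure D4:**
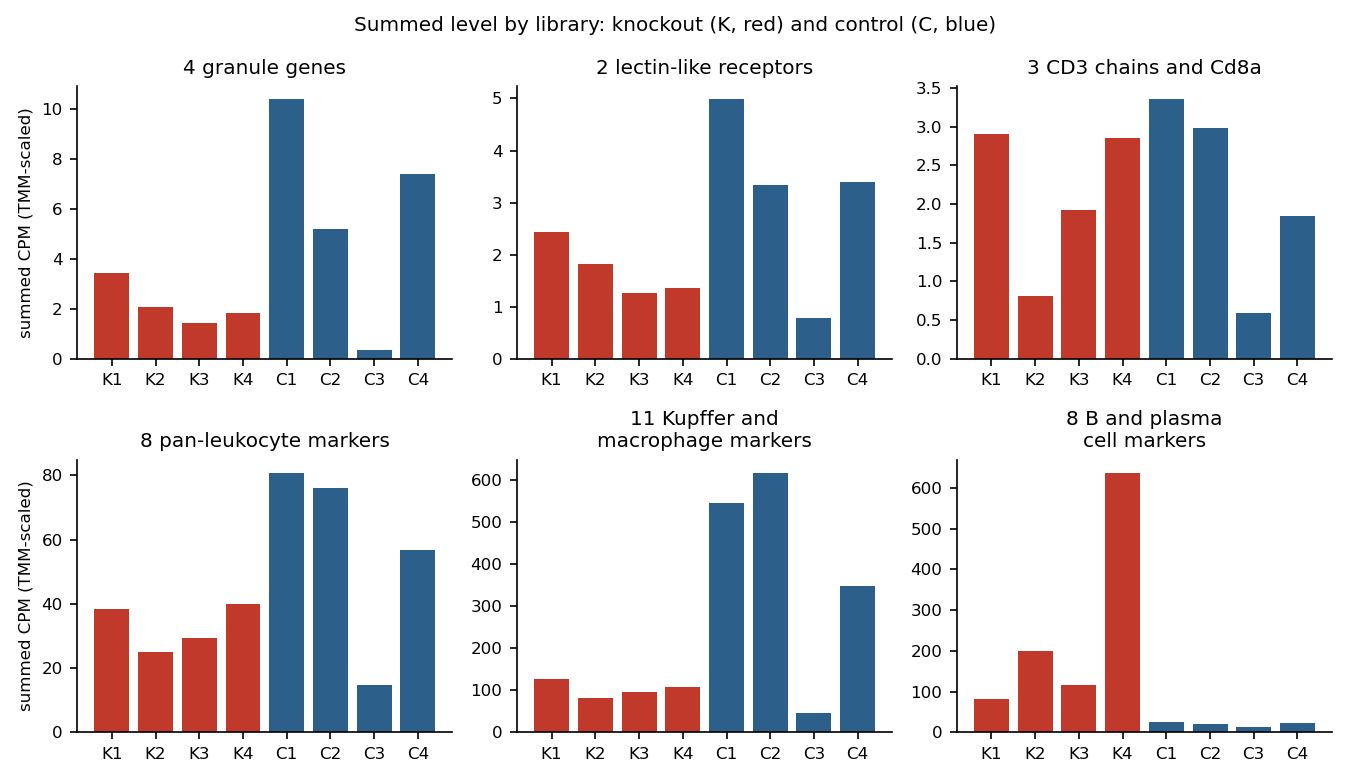
Summed CPM in each library (bars from 0) of the 3 roles of members in the upper row and of pan-leukocyte, Kupffer cell and macrophage, and B and plasma cell markers in the lower row, with knockouts K1 to K4 in red and controls C1 to C4 in blue. Control C3 has the lowest bar in every panel, and the granule sum is 1.44 to 3.43 CPM in knockouts against 5.18 to 10.4 CPM in controls C1, C2 and C4.

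Markers of other leukocytes differed between the same libraries. The 11 Kupffer cell and macrophage markers summed to 80.9 to 126 CPM in knockouts, 47.3 CPM in control 3 and 348 to 617 CPM in the other controls, and all 11 had fold changes below 0 (median −1.72), 0 of them called and 11 at an unadjusted p under 0.05. Of the 8 pan-leukocyte markers 7 had fold changes below 0 (median −0.73), 0 called and 2 at an unadjusted p under 0.05, among them Laptm5 (−1.22, SE 0.46, adjusted p = 0.289, edgeR quasi-likelihood test). B and plasma cell markers were at 81.9 to 637 CPM in knockouts and 12.5 to 26.1 CPM in controls, 0 of 6 tested being called and 4 higher in knockout at an unadjusted p under 0.05, with Ighm, the IgM heavy chain, at 4.81 (SE 0.78, adjusted p = 0.0583). Over all tested genes, 53.2% of fold changes were below 0. At an unadjusted p under 0.05 were 14% of them in either direction and 8.47% lower in knockout. The part of these cell types in the values of the 10 genes was not tested.

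Reads can also be set against those of Ptprc, the pan-leukocyte gene of CD45, within a library. Ptprc had 101, 34, 72 and 109 counts in knockouts 1 to 4 and 296, 96, 36 and 105 counts in controls 1 to 4. As a pan-leukocyte gene it also covers Kupffer and B cells, whose markers differed between the groups. A ratio to Ptprc is therefore not a level per lymphocyte. Gzma had 0.139, 0.176, 0 and 0.119 reads per Ptprc read in knockouts 1 to 4, against 0.385, 0.281, 0.0556 and 0.838 in controls 1 to 4. All knockouts stayed below controls 1, 2 and 4 on this scale, which uses the same Gzma counts and is no separate observation. Gzmb had 0.406, 0.353, 0.292 and 0.119 reads per Ptprc read in knockouts 1 to 4, against 0.307, 0.271, 0.0556 and 0.41 in controls 1 to 4, with the groups interleaved. The CD3 chains summed to 0.376, 0.294, 0.264 and 0.422 reads per Ptprc read in knockouts 1 to 4, against 0.199, 0.365, 0.139 and 0.181 in controls 1 to 4, where all knockouts lay above controls 1, 3 and 4. The lectin-like receptors had 46, 27, 21 and 26 counts in knockouts 1 to 4 and 116, 47, 13 and 68 counts in controls 1 to 4. Set against the Ptprc counts, their groups were interleaved, control 3 left out or not. These ratios were chosen after the counts were seen and were not tested.

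Levels between genes were compared per length, as CPM per kb of exon in GENCODE M21. In knockout the order of mean levels was Gzmb (0.856 ± 0.469), Nkg7 (0.49 ± 0.328), Gzma (0.453 ± 0.334) and Cd3g (0.305 ± 0.184), with the other 6 genes between 0.0254 and 0.174. In control the order was Gzma (2.82 ± 2.22), Gzmb (1.4 ± 1.08), Nkg7 (0.736 ± 0.547) and Klrk1 (0.344 ± 0.182), with the other 6 between 0.109 and 0.237 (SD, n = 4 each). Prf1 was lowest in knockout at 0.0254 ± 0.0306 and Cd3e was lowest in control at 0.109 ± 0.0822. Among the 4 genes named in each order, neighbours overlapped within their SDs.

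**Figure D5:**
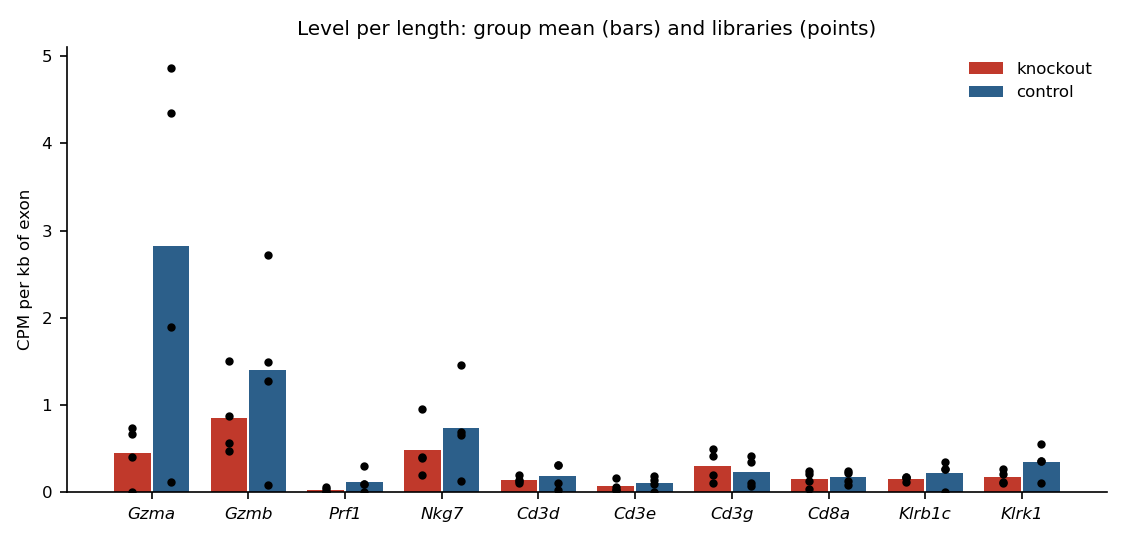
Level per length of the 10 genes in CPM per kb of exon, as group means (bars from 0, knockout red on the left, control blue on the right) with the 4 libraries as points. Gzma averaged 0.453 in knockout and 2.82 in control, and its control libraries are spread widest.

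Other genes of the same machinery were read from lists, several of which include the members. Of 22 cytotoxic granule and death ligand genes, 12 were tested and 0 were called in either direction, with 2 lower in knockout at an unadjusted p under 0.05 (median −0.15, against −0.03 over all tested genes). Over all tested genes 8.47% were lower in knockout at that p. Serpinb9, an inhibitor of granzyme B, was at 7.06 ± 2.71 CPM in knockout and 13.1 ± 4.27 CPM in control (SD, n = 4 each; log2 fold change −0.89, SE 0.29, adjusted p = 0.247, edgeR quasi-likelihood test). Ctsc, the cathepsin that processes pro-granzymes, had a value of −0.68 (SE 0.39, adjusted p = 0.448). S1pr5, a receptor by which natural killer cells leave lymphoid organs, had a value of 0.8 (SE 0.37, adjusted p = 0.358), and Rab27a, a GTPase of granule release, one of 0.49 (SE 0.43). Other effectors, chosen here after their counts were seen, were near the floor: Gzmk had 4, 3, 0 and 6 counts in knockouts 1 to 4 and 9, 0, 0 and 4 counts in controls 1 to 4, and Ifng had 0 counts in all 4 knockouts and 1, 2, 0 and 0 counts in controls 1 to 4. Gzmm had 1, 1, 0 and 4 counts in knockouts 1 to 4 and 0 counts in all 4 controls.

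Of 36 receptor and regulator genes of natural killer and innate lymphoid cells, 8 were tested and 0 were called, with 2 lower in knockout at an unadjusted p under 0.05 (median −0.34), against 8.47% of all tested genes. The smallest p belonged to Fcgr3 (−1.86, SE 0.52, adjusted p = 0.203, by the edgeR test) and Tyrobp (−1.45, SE 0.46, adjusted p = 0.239), an Fc receptor and a signalling adaptor that Kupffer cells also express, with 25 and 38 counts in control 3, below every knockout. Cd7 (0.56, SE 0.53) and Cd160 (0.53, SE 0.55) had values of the other sign. Hcst, the adaptor of NKG2D, had 2, 2, 1 and 1 counts in knockouts 1 to 4 and 3, 12, 0 and 8 counts in controls 1 to 4. Ncr1, which encodes the natural killer receptor NKp46, had 6, 0, 9 and 0 counts in knockouts 1 to 4 and 15, 6, 0 and 0 counts in controls 1 to 4, and Il2rb, a receptor chain for interleukin-2 and interleukin-15, had a value of −0.36 (SE 0.77, adjusted p = 0.864). Klrd1, which encodes CD94, had 6, 6, 6 and 7 counts in knockouts 1 to 4 and 19, 3, 2 and 4 counts in controls 1 to 4, so that every knockout was above controls 2, 3 and 4. Eomes, a transcription factor of natural killer cells, had 1, 0, 3 and 0 counts in knockouts 1 to 4 and 3, 0, 0 and 0 counts in controls 1 to 4. Hcst, Ncr1, Il2rb, Klrd1 and Eomes were chosen after their counts were seen.

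Among 32 genes of the T cell receptor complex and its signalling, 14 were tested and 0 were called, with 9 fold changes above 0, 5 below and 1 lower in knockout at an unadjusted p under 0.05 (median 0.25). Over all tested genes 53.2% of fold changes were below 0, and 8.47% were lower in knockout at that p. Lcp2, the adaptor SLP-76, which myeloid cells share, had a value of −1.26 (SE 0.44, adjusted p = 0.265, edgeR quasi-likelihood test). Thy1 (0.7, SE 0.4), the interleukin-7 receptor gene Il7r (0.72, SE 0.64) and the coreceptor gene Cd4 (−0.61, SE 0.57) followed, at adjusted p of 0.446, 0.637 and 0.651. Trac, the constant region of the T cell receptor alpha chain, chosen after its counts were seen, had a value of 0.57 (SE 0.63, adjusted p = 0.705).

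Signals to these cells were covered by chemokine and ligand lists. Of 19 lymphocyte chemokine and homing genes 14 were tested and 0 were called, with 4 lower and 1 higher in knockout at an unadjusted p under 0.05 (median −0.68), and their summed level was 35.5 to 57.1 CPM in knockouts, 29.9 CPM in control 3 and 93.5 to 150 CPM in the other controls. Cxcl9, an interferon-induced ligand of CXCR3 on T and natural killer cells, was at 10.1 ± 4.73 CPM in knockout and 37.9 ± 26.6 CPM in control (log2 fold change −1.91, SE 0.49, adjusted p = 0.175, edgeR quasi-likelihood test), Vcam1 had a value of −1.28 (SE 0.41), Itgal, a chain of the integrin LFA-1, one of −1.32 (SE 0.51), and Ccl21a one of 0.94 (SE 0.38). Of 26 cytokines and ligands for these cells 15 were tested and 0 were called, with 2 lower in knockout at an unadjusted p under 0.05 (median −0.15). For both lists the share over all tested genes at that p was 8.47% lower in knockout and 14% in either direction. Cd274, the checkpoint ligand PD-L1, had a value of −2.17 (SE 0.67, adjusted p = 0.227), the death receptor gene Fas one of −0.75 (SE 0.24), the class I gene H2-D1 one of −0.5 (SE 0.23), and Raet1d, an NKG2D ligand, one of 0.54 (SE 0.25, adjusted p = 0.357).

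Genes whose pattern over the 8 libraries was most like that of Gzma were Ly6a, Rsph4a, Ifi206, Tlr7 and Il18bp, by the root mean square difference of centred log2 CPM (0.757 to 0.833). Ly6a, the surface antigen Sca-1, had 365, 162, 135 and 251 counts in knockouts 1 to 4 and 1926, 586, 146 and 1135 counts in controls 1 to 4, and Il18bp, which encodes a soluble antagonist of interleukin-18, had 126, 53, 74 and 92 counts in knockouts 1 to 4 and 796, 245, 37 and 603 counts in controls 1 to 4. As both were picked for likeness to Gzma, controls 1, 2 and 4 lying above every knockout in both is no separate observation. Adjusted p was 0.199 for Ly6a and 0.206 for Il18bp in the edgeR test. Most like the sum of the 10 genes were Ncf1, Lpxn, Was, Lgals3 and Nckap1l (0.213 to 0.291), with adjusted p of 0.358 to 0.607 in the edgeR test.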

How the data were processed

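Per the labels' protocols, RNA from frozen liver was read on the HiSeq X10 platform of Illumina. The submitters' processing notes name CASAVA 1.8, Bowtie, TopHat2 and GRCm38. Not given in the sources used here are the counting program, its annotation and its use of strand. The values are estimated counts per gene, deposited by the authors without normalization, of which 94.2% were whole, as were all values of the 10 genes. Counts were rounded, filtered by filterByExpr (minimum count 10), scaled by TMM and compared by edgeR's quasi-likelihood test (edgeR 4.0.16, R 4.3.3), without covariates, over 11692 genes, with Benjamini-Hochberg adjustment and a threshold of 0.05. The SE is the size of the fold change over the root of F. The 5 genes that the filter removed were compared by an exact two-sided permutation test of mean CPM, with 5 tests in the main setting. The test was repeated in 11 alternatives per gene, which gave 55 further p-values. None of these permutation p-values was adjusted for the number of tests. Alternatives were DESeq2 1.42.0, limma-voom (limma 3.58.1), other scalings and filters, a replicate block, each library left out, and terms or subsets for Y-linked reads (over 10 counts of 4 genes).

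Members, the 5 related lists and the 10 marker lists were chosen with earlier results of these data known. Genes named were Stat3, all members, up to 4 genes with the smallest p per related list, and the 5 genes closest in pattern (log2 CPM, prior count 2) to Gzma and to the sum. Marker genes and others named outside this rule were chosen after their values were seen. GENCODE M21 (GRCm38) gave coordinates and lengths and held 99.8% of the gene identifiers. Libraries of 1 group were compared for duplicates: the median chi-square per gene was 1.26 to 11.4 over 12 pairs, against 0.455 for sampling noise, so each was counted once. The totals of 15998391 to 19474696 counts put a floor of 3 counts at 0.154 to 0.188 CPM.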

Additional observations from a re-analysis of the deposited data

Results flagged for a closer look

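None of the 10 genes, and none of their sums, had a library far from the rest of its group by Dixon's 95% criterion for the gap over the range. Of 62 groups of 4 libraries examined, 5 were set apart, all in marker lists of other cell types, where chance gives about 1 in 20. The hepatocyte markers summed to 158075 CPM in knockout 1 and to 343775 CPM in control 2, each the highest of its group. The stellate cell markers summed to 346 CPM in knockout 1 and to 234 CPM in control 2, again the highest of each group. The cholangiocyte markers summed to 150 CPM in control 3, the library in which the 10 lymphocyte genes were lowest among controls. Most of that sum was Spp1, with 2408 counts in control 3, beside 34 for Sox9, 56 for Epcam and 19 for Krt19. The part of these libraries' composition in the values of the 10 genes was not tested.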

How the results depend on the processing

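The number of members called was 0 and became 1 (Gzma) without control 3 or without controls 2 and 3 together, so 0 to 1 with a library left out. Over all genes the count was 4, and it was 11 with upper-quartile scaling, 1 with library totals, 62 without a filter, 8 with 1 CPM in 4 libraries, 27 with Y-linked reads as a term, 125 in libraries with Y-linked reads, 187 without controls 2 and 3, 0 in limma-voom, 278 in DESeq2, and 0 to 324 with a library left out (control 3 left out gave 324, knockout 1 gave 67, control 2 gave 7, control 1 gave 1, and each of the others 0). Whether the numbers pair the samples was not settled (correlations of same-numbered deviations −0.247 to 0.324, 3 of 4 knockouts closest to their own number). With the replicate block 0 genes were called, and Gzma had a log2 fold change of −2.61 (SE 0.39, adjusted p = 0.107, edgeR quasi-likelihood test). Of 92 alternative fold changes of the 5 tested members 3 changed sign, all Cd8a (0.02, 0.08 and 0.17, with 1 library left out each; range −0.44 to 0.17). In libraries with Y-linked reads, whose only controls are 3 and 4, the CPM differences, knockout minus control, of Nkg7 (0.115), Cd3d (0.14), Cd3e (0.151) and Klrb1c (0.0471) changed sign. For the 5 untested genes every alternative, the tests without control 3 included, was added after seeing the data, as were the sums by role without control 1 or 3. The summed CPM difference of the 10 genes was −5.11, −9.66 without controls 2 and 3, and −8.25 to −2.57 with a library left out. The cause was not tested. With 38 of 80 member values under 10 counts, counting error limits the precision of single values.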

Other observations

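The other marker lists gave these summed levels in CPM, none with a called member. Neutrophil markers were at 0.743 to 5.97 in knockout and 1.43 to 3.48 in control, dendritic cell markers at 2.77 to 3.92 in knockout and 1.85 to 6.33 in control, and mast cell and basophil markers at 1.28 to 3.38 in knockout and 0.993 to 4.09 in control. Sinusoidal endothelial markers were at 84.1 to 101 in knockout and 42.2 to 107 in control, control 3 being the lowest. The interleukins known to act on natural killer cells were chosen here after their counts were seen. Il15 had a log2 fold change of 0.16 (SE 0.5, adjusted p = 0.907) and Il18 one of 0.00 (SE 0.21, adjusted p = 0.996, edgeR quasi-likelihood test).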
